A study of Mus musculus with 99 samples.

Results

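Neurexins, neuroligins and LRRTMs are synaptic adhesion proteins, and 9 of their genes were followed through 5 brain regions of juvenile mice exposed to fentanyl around birth. The genes were chosen by name: the neurexins Nrxn2 and Nrxn3, the neuroligins Nlgn1, Nlgn2 and Nlgn3, and the leucine-rich repeat transmembrane genes Lrrtm1, Lrrtm2, Lrrtm3 and Lrrtm4. They are 9 of the 55335 gene identifiers counted, and each symbol matched 1 identifier. Neurexins sit on the presynaptic membrane and bind partners across the synaptic cleft. Neuroligins and LRRTMs are postsynaptic and compete for overlapping sites on neurexins. Nlgn1 is best known at excitatory synapses, Nlgn2 at inhibitory synapses and Nlgn3 at both, while LRRTMs act at excitatory synapses, where they help to hold AMPA-type glutamate receptors.

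All mice were labelled wildtype and came from C57BL/6 dams. The exposed dams drank fentanyl, a synthetic opioid, at 10 µg/ml from conception to weaning, and the others drank water. The labels name no litters, so littermates cannot be told from unrelated pups, and p-values measure the spread between these libraries. Bulk RNA was sequenced from punches of a midbrain dopamine area (the ventral tegmental area, VTA), a thalamic relay of body sensation (the ventrobasal thalamus, VBT), the ventral striatum (nucleus accumbens, NAc) and 2 cortices (S1, somatosensory, and PrL, prelimbic), from female and male pups with either exposure. These 20 groups held 5 libraries each, apart from 4 in S1 male water. In a bulk punch, fewer cells of a type and less RNA per cell cannot be told apart.

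The library VTA male water 3 had 6333 genes detected and was left out, which left 98 libraries and 4 in that group. Over all 99 libraries, totals over genes ran from 16515545 counts, in the library left out, to 52069639 counts. Levels are given as CPM, each count scaled to the gene total of its library. By median, the markers of each labelled region were highest there. The 6 VTA markers summed to 335 to 1733 CPM in VTA and to at most 69.3 CPM elsewhere, and the 6 striatal markers to 1096 to 3798 CPM in NAc and to at most 714 CPM elsewhere. The 6 VBT markers summed to 1351 to 4181 CPM in VBT and to at most 716 CPM elsewhere. The 5 cortical markers summed to 1241 to 1759 CPM in S1 and 1382 to 2231 CPM in PrL, and they were not restricted to cortex, with medians of 609 CPM in NAc (55.1 to 1371), 402 CPM in VBT and 14.9 CPM in VTA. Some libraries stood apart by such markers: VBT male water 3 held the 714 CPM of striatal markers, NAc female water 1 the 1371 CPM of cortical ones, and PrL male water 3 and PrL female water 5 held 318 and 166 CPM of 4 olfactory bulb markers.

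Apart from Nrxn2, which had few reads, Lrrtm4, Lrrtm1 and Lrrtm3 had the largest ratios of highest to lowest regional mean among the members (8.0, 6.22 and 3.92, before 2.71 for Nlgn1), and their promoters are shown for that reason. They are the 300 bases around the annotated starts of Lrrtm1, which was highest in VBT, and of Lrrtm3 and Lrrtm4, which were lowest there and moved together. The sequences run from 250 bases before to 50 bases after the start and are from RefSeq on GRCm38.p6, 5′ to 3′ on the strand of the gene. Capitals mark a GC box or a TATA box on either strand. Lrrtm1 lies at chr6:77242227-77242526 on the plus strand, Lrrtm3 at chr10:64090206-64090505 on the minus strand and Lrrtm4 at chr6:80018627-80018926 on the plus strand.
Lrrtm1: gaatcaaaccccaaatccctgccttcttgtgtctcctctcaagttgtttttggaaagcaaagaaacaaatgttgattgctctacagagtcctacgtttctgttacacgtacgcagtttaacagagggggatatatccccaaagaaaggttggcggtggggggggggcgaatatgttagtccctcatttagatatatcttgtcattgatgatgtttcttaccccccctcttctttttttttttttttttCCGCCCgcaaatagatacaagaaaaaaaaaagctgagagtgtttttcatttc
Lrrtm3: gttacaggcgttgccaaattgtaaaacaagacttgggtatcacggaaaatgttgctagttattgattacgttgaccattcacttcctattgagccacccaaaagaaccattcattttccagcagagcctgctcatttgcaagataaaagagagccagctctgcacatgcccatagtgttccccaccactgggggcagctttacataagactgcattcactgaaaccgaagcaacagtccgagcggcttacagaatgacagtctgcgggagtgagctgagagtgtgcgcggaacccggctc
Lrrtm4: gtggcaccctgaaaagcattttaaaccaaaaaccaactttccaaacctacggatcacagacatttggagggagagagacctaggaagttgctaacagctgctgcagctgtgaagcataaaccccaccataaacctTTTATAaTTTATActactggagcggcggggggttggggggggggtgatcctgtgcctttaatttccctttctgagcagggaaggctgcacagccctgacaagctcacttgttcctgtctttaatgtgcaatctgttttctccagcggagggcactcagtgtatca

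Both strands were searched for 5 motifs, and no 2 hits overlapped. The GC box GGGCGG stood once in the Lrrtm1 window and in 35.7% of the 32851 promoter windows of the table. The TATA box TATAAA stood 2 times in the Lrrtm4 window and in 13.6% of all windows. The table lists another Lrrtm4 start, whose window (chr6:80019393-80019692, 53.3% GC) held none of the 5 motifs and is not printed. The CCAAT box CCAAT, the cAMP response element TGACGTCA and the E-box CACGTG were in none of these 3 windows, against 37.4%, 1.79% and 7.15% of all windows. The Lrrtm3 window held none of the 5. GC contents were 40.7% for Lrrtm1 and 48.7% for both Lrrtm3 and Lrrtm4, beside a median of 52.7% over the table. Such matches are descriptions of letters. The table held windows for 6 of the 9 genes.

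Of the neurexins, Nrxn3 was read well and Nrxn2 was not. Nrxn2 (GRCm38, chromosome 19, 6418731 to 6544169, plus strand) had 0 to 19 counts in a library, at a median of 4, and its highest level was 0.554 CPM. It lay in a run of 14 neighbouring protein-coding genes, from Batf2 to Slc22a12 (6140983 to 6544169), of which none reached 1 CPM in any library and 6 had no count at all. The run holds Sf1, a general splicing factor, and Men1. The genes beside the run, Arl2 and Rps6ka4, averaged 46.2 and 23.2 CPM. The cause of the near absence of counts across this stretch was not tested. Nrxn2 values were therefore not read as expression, and counts of genes below are over the 8 others. In the comparison of regions Nrxn2 passed the test on these few counts, with a log2 difference of -1.42 (adjusted p = 0.0277 in edgeR) in VBT and 1.05 (adjusted p = 0.0432) in PrL against the other regions. It was not called in any fentanyl comparison where it was tested.

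Nrxn3 (chromosome 12, 88722876 to 90334935, plus strand) varied least between regions. In water libraries it averaged 364 ± 39.7 CPM (SD, n = 9) in VTA, 356 ± 49.0 (n = 10) in VBT, 352 ± 41.2 (n = 10) in NAc, 345 ± 36.3 (n = 10) in PrL and 318 ± 24.98 (n = 9) in S1. The highest mean was 1.14 times the lowest, and the ranges of all neighbours in the order of medians overlapped. Across any regions the edgeR test gave an adjusted p of 0.0697, while 7 of the 8 members were called, as were 92.1% of all genes tested. Against the mean of the other 4 regions Nrxn3 was called only in VBT, at a log2 fold change of 0.15 ± 0.06 (SE, adjusted p = 0.0217). In the fentanyl libraries that difference was 0.09 (adjusted p = 0.236), and Nrxn3 was instead lower in VTA, at -0.25 (adjusted p = 0.0013).

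**Figure D1:**
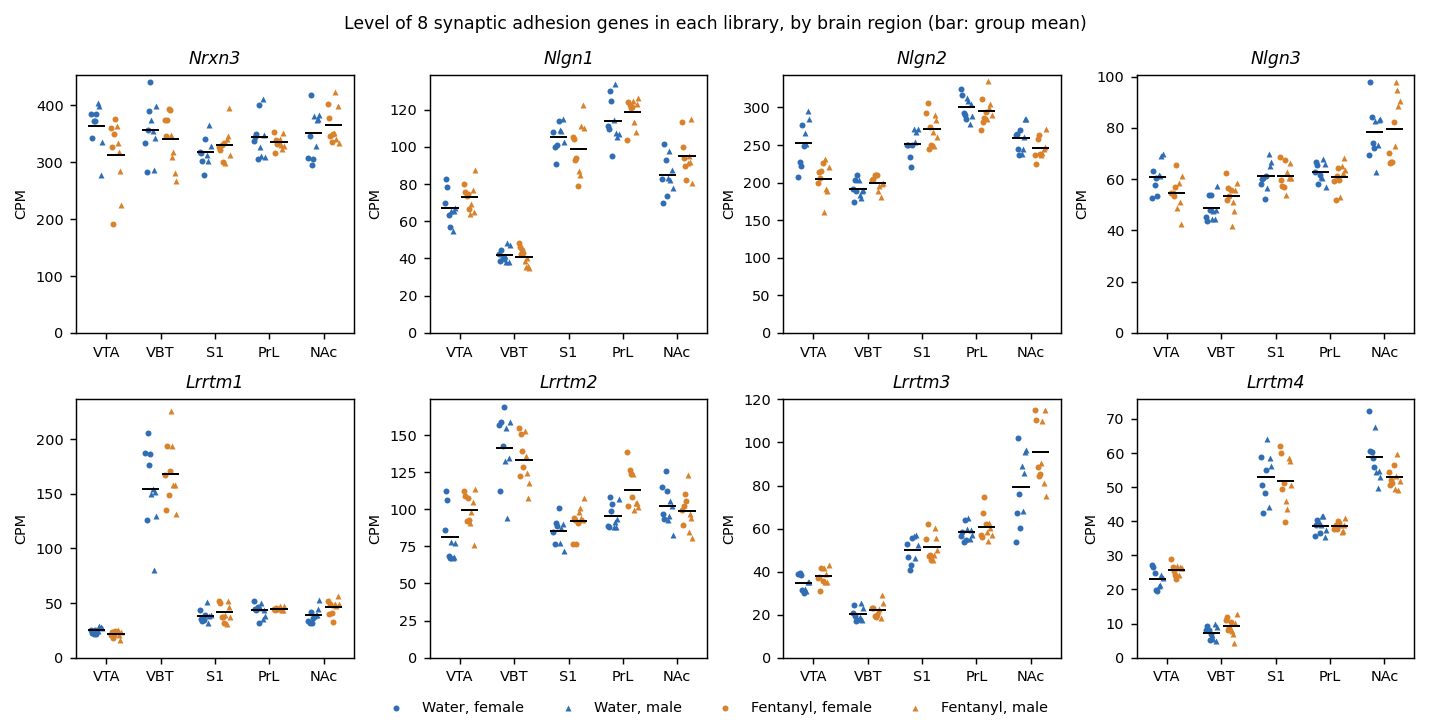
Level in CPM (vertical axes, from 0) of the 8 members in each of the 98 libraries, by region, with water in blue, fentanyl in orange, circles for females, triangles for males and a bar at the mean of each treatment. Lrrtm1 stands highest and Lrrtm3, Lrrtm4 and Nlgn1 lowest in VBT, while Nrxn3 is nearly level.

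In VBT, the thalamic relay for touch, all 8 members differed in the water libraries from the mean of the other 4 regions in edgeR's quasi-likelihood test (adjusted p under 0.05), where 69.7% of all genes did. Lrrtm1 and Lrrtm2 were higher, Lrrtm3, Lrrtm4, Nlgn1, Nlgn2 and Nlgn3 were lower, and Nrxn3 differed least. The calls were 5 of 8 in VTA (66.9% of all genes), 5 of 8 in S1 (62.1%), 4 of 8 in PrL (60.1%) and 4 of 8 in NAc (61.2%). In the fentanyl libraries the order was another, with 8 of 8 called in VTA (71.4% of all genes), 7 in VBT without Nrxn3 (71.6%), 6 in S1 (57.5%), 5 in PrL (65.7%) and 6 in NAc (67%).

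Lrrtm1 (chromosome 6, 77242689 to 77257791, plus strand), a postsynaptic organizer, had the largest rise. In VBT its water libraries read 187, 126, 206, 176 and 187 CPM in females and 150, 154, 80.3, 151 and 129 CPM in males. Means elsewhere were 43.2 ± 6.29 CPM (SD, n = 10) in PrL, 38.8 ± 6.36 (n = 10) in NAc, 38.4 ± 5.76 (n = 9) in S1 and 24.9 ± 2.70 (n = 9) in VTA. Every VBT library was above every library of the other regions, whose highest was 52.5 CPM, and VTA was below all S1 libraries. PrL, NAc and S1 overlapped. Lrrtm1 was 4.66-fold higher in VBT than the mean of the other 4 regions (log2 2.22 ± 0.08 SE, adjusted p = 7.57e-28). The lowest VBT value, 80.3 CPM, came from VBT male water 3, the library with striatal markers. Leaving out any 1 library kept the log2 difference between 2.17 and 2.31, and the fentanyl libraries gave 2.26.

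Lrrtm4 (chromosome 6, 80018877 to 80810143, plus strand), which binds heparan sulfate proteoglycans as well as neurexins, ran the other way. VBT water libraries read 8.07, 9.19, 8.08, 5.30 and 6.92 CPM in females and 6.71, 5.47, 9.74, 4.85 and 9.06 CPM in males. NAc averaged 58.7 ± 6.86 CPM (SD, n = 10), S1 53.1 ± 7.24 (n = 9), PrL 38.6 ± 2.27 (n = 10) and VTA 23.1 ± 2.83 (n = 9), and only NAc and S1 overlapped. The highest regional mean was 8.0 times the lowest. The log2 difference of VBT from the others was -2.39 ± 0.09 (SE, adjusted p = 1.78e-28), and NAc and S1 were higher at 1.20 (adjusted p = 8.74e-21) and 1.12 (adjusted p = 4.13e-19). Of its exon bases, 25.1% are shared with Gm4409 on the opposite strand, and no strand was stated for the counting.

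Lrrtm3 (chromosome 10, 63928472 to 64090277, minus strand) followed nearly the same order as Lrrtm4. It averaged 79.3 ± 16.7 CPM (SD, n = 10) in NAc, 58.4 ± 3.88 (n = 10) in PrL, 50.2 ± 6.02 (n = 9) in S1, 34.5 ± 3.62 (n = 9) in VTA and 20.2 ± 3.11 (n = 10) in VBT. VTA and VBT lay apart from all others and from each other, and NAc, PrL and S1 overlapped as neighbours. Against the mean of the other 4 regions VBT was lower by a log2 difference of -1.31 ± 0.07 (SE, adjusted p = 2.60e-21) and NAc higher at 0.99 ± 0.06 (adjusted p = 9.79e-19). Over the 48 water libraries the log2 levels of Lrrtm3 and Lrrtm4 had a Pearson r of 0.93, and those of Lrrtm1 and Lrrtm4 an r of -0.74. These correlations describe libraries that share region, sex and kit, and most of their spread is between regions.

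Lrrtm2 (chromosome 18, 35209003 to 35215024, minus strand), like Lrrtm1 a ligand of neurexins, was also highest in VBT, but less so. VBT averaged 141 ± 23.7 CPM (SD, n = 10), NAc 102 ± 12.8 (n = 10), PrL 95.5 ± 8.15 (n = 10), S1 85.2 ± 8.96 (n = 9) and VTA 81.0 ± 17.2 (n = 9), with overlap between all neighbours. Its log2 difference in VBT was 0.74 ± 0.07 (SE, adjusted p = 1.24e-13), and in VTA -0.46 ± 0.08 (adjusted p = 9.48e-07). In the fentanyl libraries the VBT difference was 0.48.

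Among neuroligins the order was different. Nlgn1 (chromosome 3, 25426215 to 26332460, minus strand) was highest in both cortices, with 114 ± 12.2 CPM (SD, n = 10) in PrL and 105 ± 7.63 (n = 9) in S1, then 85.0 ± 10.2 (n = 10) in NAc, 67.1 ± 9.04 (n = 9) in VTA and 41.9 ± 3.73 (n = 10) in VBT. VBT lay below every other library. The log2 differences were 0.72 ± 0.05 (SE, adjusted p = 1.59e-16) in PrL, 0.57 ± 0.06 (adjusted p = 1.82e-12) in S1 and -1.02 ± 0.06 (adjusted p = 1.65e-20) in VBT.

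Nlgn2 (chromosome 11, 69823122 to 69837784, minus strand), the neuroligin of inhibitory synapses, ranged less. PrL averaged 300.2 ± 15.6 CPM (SD, n = 10), NAc 259 ± 17.6 (n = 10), VTA 253 ± 30.2 (n = 9), S1 252 ± 16.7 (n = 9) and VBT 191 ± 11.1 (n = 10). VBT lay below all S1 libraries but overlapped VTA, and the other neighbours overlapped. It was called higher in PrL, at a log2 difference of 0.38, and lower in VBT, at -0.38.

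Nlgn3 (chromosome X, 101299168 to 101325963, plus strand) averaged 78.3 ± 9.94 CPM (SD, n = 10) in NAc, 62.7 ± 3.76 (n = 10) in PrL, 61.1 ± 5.44 (n = 9) in S1, 61.0 ± 5.97 (n = 9) in VTA and 48.6 ± 4.73 (n = 10) in VBT. All neighbours overlapped. NAc was higher (log2 0.36 ± 0.05 SE, adjusted p = 5.53e-09) and VBT lower (-0.33 ± 0.05, adjusted p = 5.01e-08). Gm21986 on the same strand shares 41.2% of its exon bases, so reads there may be missing from the count of Nlgn3.

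In pairs of regions, 8 of the 8 members differed between VBT and S1 (69.8% of all genes), and 7 of 8 between VBT and VTA (54.4%), VBT and PrL (70.1%) and VBT and NAc (69.8%). The count was 4 for VTA against S1 (69.2%), 6 for VTA against PrL (68.2%) and 6 for VTA against NAc (66.2%). It was 3 for S1 against PrL (39.5%), 3 for S1 against NAc (55.1%) and 5 for PrL against NAc (52.1%). The S1 and PrL count was 6 by limma-voom and 5 with GC offsets. It was 5 in the fentanyl libraries (42.9% of all genes) and 1 with VTA male water 3 kept, which also left 2 for PrL against NAc. For VTA against S1 the fentanyl libraries gave 7 (69.2% of all genes). In the fentanyl libraries the log2 difference of VTA minus VBT changed sign for Nlgn2, to -0.11 (adjusted p = 0.0446 in edgeR), and for Nlgn3, to -0.11 (0.148). Between the 2 cortices in water libraries the called members were Nlgn2, Lrrtm3 and Lrrtm4, at log2 differences of S1 minus PrL of -0.26, -0.23 and 0.45.

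Compared per kilobase of exon, which allows different genes to be set side by side, Nlgn2 made up most of the neuroligin level in every region. Its share of the 3 genes ran from 75.1% ± 0.959 (SD, n = 9) in S1 to 79.8% ± 1.19 (n = 10) in VBT. Nlgn1 held 13.6% ± 0.807 (SD, n = 9) in S1 and 7.55% ± 0.713 (n = 10) in VBT. The LRRTM family changed its make-up far more: Lrrtm1 held 62.8% ± 4.68 (SD, n = 10) of the level in VBT and 22.0% ± 2.70 (n = 10) to 28.4% ± 3.18 (n = 10) in the other 4 regions. Lrrtm4 held 1.58% ± 0.693 (SD, n = 10) in VBT and 18.2% ± 1.28 (n = 9) in S1. In VTA Lrrtm2 was the largest, at 39.8% ± 4.40 (SD, n = 9), and in NAc Lrrtm3, at 31.9% ± 4.75 (n = 10), overlapping Lrrtm2 at 29.5% ± 4.69 (n = 10). Summed, the LRRTMs reached 80.5 ± 14.9 CPM per kilobase (SD, n = 10) in VBT and 33.5 ± 3.67 (n = 9) in VTA, while the neuroligins reached 41.4 ± 2.26 (n = 10) and 55.4 ± 5.47 (n = 9). With only the exon bases that no other gene shares, the share of Nlgn3 in the neuroligins went from 10.1% to 15.8% in PrL, where it was lowest, and from 14.2% to 21.7% in NAc, where it was highest. It was over 1.5 times as large in all 5 regions, and Nlgn2 then held 67.7% in NAc to 72.8% in VBT.

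**Figure D2:**
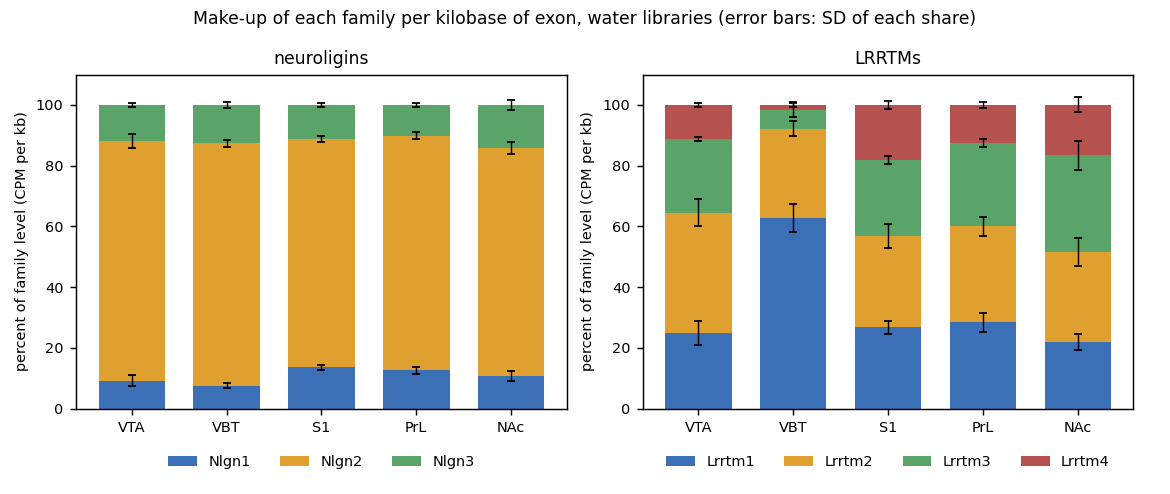
Mean share of each gene in the neuroligin level (left) and the LRRTM level (right), in percent of CPM per kilobase of exon, by region in water libraries, with error bars for the SD of each share over 9 or 10 libraries. Lrrtm1 fills 62.8% of the LRRTM bar in VBT, and Nlgn2 at least 75.1% of every neuroligin bar.

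Lrrtm1, Lrrtm2 and Lrrtm3 each lie inside an alpha-catenin gene on the opposite strand, and no strand is stated for the counting. Ctnna2, around Lrrtm1, differed in VBT by a log2 of 0.14, against 2.22 for Lrrtm1. Ctnna3, around Lrrtm3, was higher in VBT by 1.19, where Lrrtm3 was lower by -1.31. Ctnna1, around Lrrtm2, was higher in VBT by 0.64 and in VTA by 0.69, where Lrrtm2 was higher by 0.74 and lower by -0.46. Its part in the level of Lrrtm2 was not tested.

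The genes whose log2 levels over the 48 water libraries were most like each member were Ramp3 (r = 0.97) and Sptbn1 (0.95) for Lrrtm1, Shisa7 (0.97) and Grm5 (0.97) for Lrrtm3, and Kbtbd11 (0.97) and Cacna1e (0.97) for Lrrtm4. For Nlgn1 they were Nyap2 (0.97) and Scn2a (0.97), for Nlgn2 Ptprn (0.94) and Fam241b (0.93), and for Nlgn3 Setd6 (0.89) and Cnbp (0.87). Lrrtm2 was nearest to Cd47 (0.89) and 4921524J17Rik (0.88). Nrxn3, which hardly varied, reached only 0.55 with Ablim3 and 0.54 with Mir670hg.

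Among members, Lrrtm4 was the nearest to Nlgn1 (0.88) and to Lrrtm3, Lrrtm1 was the nearest to Lrrtm2 (0.77), Nlgn1 to Nlgn2 (0.77) and Lrrtm3 to Nlgn3 (0.79). Nrxn3 was nearest to Lrrtm2 (0.15). For the 48 values of Nrxn2, on its few reads, the nearest were Wif1 (0.61), Pnma5 (0.60) and, among members, Nlgn2 (0.46).

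The partners of these proteins, 56 other genes of neurexin binding and synapse organization, differed strongly between regions as well. In VBT 12 were higher and 34 lower of 56, where 34.8% of all genes were higher and 34.8% lower, with a median log2 difference of -0.24, beside -0.01 over all genes. In VTA 16 were higher and 32 lower (36.2% and 30.6% of all genes), with a median of -0.20 against 0.03. S1 had 30 higher and 11 lower (30.3% and 31.8% of all genes), with a median of 0.21 against -0.01. PrL had 37 and 10 (29.5% and 30.6%), with 0.38 against -0.01, and NAc 24 and 19 (29.1% and 32%), with 0.05 against -0.02. Of the 7 presynaptic adaptors that bind neurexins, 7 were higher in PrL and 6 in S1, while 6 were lower and 1 higher in VBT, 5 lower and 1 higher in VTA, and 4 lower and 3 higher in NAc, beside those same shares of all genes.

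Secreted neurexin ligands gave most of the extremes. C1ql2, a complement-like ligand, averaged 24.8 CPM in VTA and 0.224 CPM in PrL, with log2 differences of 5.58 (adjusted p = 2.79e-26) and -2.77 (adjusted p = 3.60e-09) from the other regions. Its relative C1ql3 was highest in PrL at 220.2 CPM (log2 3.13). Nxph2, a neurexophilin, averaged 6.81 CPM in NAc and 2.10 CPM in S1 but 0.287 CPM in VTA and 0.127 CPM in VBT, with log2 differences of 3.30, 1.28, -2.41 and -3.77. Nxph4 was lowest in S1 at 0.537 CPM (log2 -2.80), but also low in VBT at 0.690 CPM and PrL at 1.44 CPM, beside 6.94 CPM in NAc and 30.1 CPM in VTA. Cbln1, a cerebellin, was lowest in NAc at 3.17 CPM (log2 -2.11), beside 4.63 CPM in S1, 9.38 CPM in PrL, 12.6 CPM in VBT and 59.1 CPM in VTA. The lowest count in a library was 0 for C1ql2 and Nxph2 and 4 for Nxph4, so their low values rest on few reads. In VBT the highest partner by fold was Shank3, a postsynaptic scaffold, at 768 CPM (log2 2.05, adjusted p = 5.18e-26).

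Few of these genes passed the test of fentanyl against water. In VTA males 4 of the 8 members were called, where 22% of all genes were. Nlgn2 and Nlgn3 were lower, and Lrrtm2 and Lrrtm3 higher. In VTA females none was called, as for 0% of all genes, by edgeR, DESeq2 or limma-voom, with 1 member at an unadjusted p under 0.05, as 12.7% of all genes were. Averaged over the sexes 3 of 8 were called (23.1% of all genes): Nlgn2, Nlgn3 and Lrrtm2. The difference between the sexes passed for 0 of 8 (0% of all genes) by edgeR, DESeq2 or limma-voom, with 2 at an unadjusted p under 0.05 (11.4% of all genes), so the effect is not shown to differ between them.

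Nlgn2 had the smallest adjusted p of the members in VTA males, but its call was lost with offsets for GC content. Fentanyl libraries read 160, 231, 191, 188 and 221 CPM, and water libraries 266, 251, 295 and 284 CPM. The groups did not overlap, which held in VTA males for 23.5% of all genes with a mean of at least 10 counts. The log2 fold change was -0.43 ± 0.08 (SE, adjusted p = 0.00296 in edgeR), and it was called in all 19 fits that left out 1 library, while with the GC offsets it stood at -0.04 (adjusted p = 0.722). In females it was -0.17 ± 0.08 (adjusted p = 0.38), with 212 ± 10.1 CPM (SD, n = 5) against 236 ± 27.3 (n = 5) and overlapping groups. The average over the sexes was -0.30 ± 0.06 (adjusted p = 0.00178).

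Nlgn3 read 48.7, 58.6, 51.2, 42.4 and 61.3 CPM in VTA males with fentanyl and 61.5, 61.1, 69.0 and 69.9 CPM with water. Only the highest fentanyl library reached into the water range. The log2 fold change was -0.28 ± 0.08 (SE, adjusted p = 0.0165 in edgeR), beside -0.02 ± 0.08 in females (adjusted p = 0.92) and -0.15 ± 0.06 on average (adjusted p = 0.0489). The male call was lost without male water 4 (adjusted p = 0.0526) or male water 5 (adjusted p = 0.0553). The call on the average was lost in 15 of 19 fits that left out 1 library, with adjusted p from 0.0541 to 0.1001 and log2 fold changes of -0.13 to -0.17 in those fits.

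Lrrtm2 read 90.6, 98.1, 105, 76.2 and 114 CPM in VTA males with fentanyl and 77.8, 67.1, 67.6 and 77.3 CPM with water. The lowest fentanyl library lay within the water range. The log2 fold change was 0.45 ± 0.13 (SE, adjusted p = 0.0203 in edgeR), beside 0.21 ± 0.12 in females (adjusted p = 0.48) and 0.33 ± 0.09 on average (adjusted p = 0.013). The male call was lost without male water 2 (adjusted p = 0.0532) or male water 4 (adjusted p = 0.0693).

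Lrrtm3 read 41.8, 35.4, 39.0, 35.1 and 42.9 CPM with fentanyl and 31.9, 30.9, 35.0 and 34.9 CPM with water, and these male groups did not overlap. The log2 fold change was 0.27 ± 0.09 (SE, adjusted p = 0.0433 in edgeR), and the call held in 10 of 19 fits with 1 library left out. Lrrtm3 gave 0.03 ± 0.09 in females (adjusted p = 0.925) and 0.15 ± 0.06 on average (adjusted p = 0.0994), and was called in neither. The other members in VTA males were Nlgn1 at 0.23 (adjusted p = 0.0917), Lrrtm4 at 0.25 (0.0663), Lrrtm1 at -0.27 (0.0866) and Nrxn3 at -0.18 (0.503), and none of them was called by edgeR. DESeq2 called Lrrtm4 (adjusted p = 0.0382), and limma-voom, which called 33.1% of all genes, called Nlgn1 (0.0136), Lrrtm4 (0.015) and Lrrtm1 (0.0255).

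The direction of these values went with the GC content of the genes. The members with the lowest GC content in their longest annotated transcript (Lrrtm4 38.4%, Lrrtm2 38.4%, Nlgn1 38.9%, Lrrtm3 44.5%) were all on the higher side in VTA males, and Nrxn3 (47.5%), Nlgn3 (49.3%), Lrrtm1 (54.7%) and Nlgn2 (60.7%) on the lower side. Over 19802 genes tested in VTA males, Spearman's rho between GC content and log2 fold change was -0.59, and in VTA females -0.39, across genes that are not independent. The median log2 fold change was 0.28 in the 2859 genes under 42% GC and -0.37 in the 1770 genes over 58% GC. With offsets that take out a GC trend in each library, none of the 8 members was called: beside the -0.04 of Nlgn2, Nlgn3 stood at -0.27 (adjusted p = 0.06), Lrrtm2 at 0.21 (0.171) and Lrrtm3 at 0.15 (0.32). Such offsets would also take out a fentanyl change that goes with GC content, so a GC bias and such a change cannot be told apart here. The cause of the GC trend was not tested. The share of all genes called with these offsets is not given here. VTA markers were lower in males with fentanyl as well: all 6 had a lower mean, and their sum was 335 to 1240 CPM against 864 to 1499 CPM. In females 5 of the 6 had a lower mean, at sums of 440 to 1361 CPM against 478 to 1733 CPM. The 5 markers of neurons in general summed in males to 3885 to 4300 CPM against 3485 to 3765 CPM, with 3 higher and 2 lower by mean. Their part was not tested. With the VTA marker score as a covariate 2 members were called in males, Nlgn2 (adjusted p = 0.0194) and Lrrtm2 (0.0427).

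**Figure D3:**
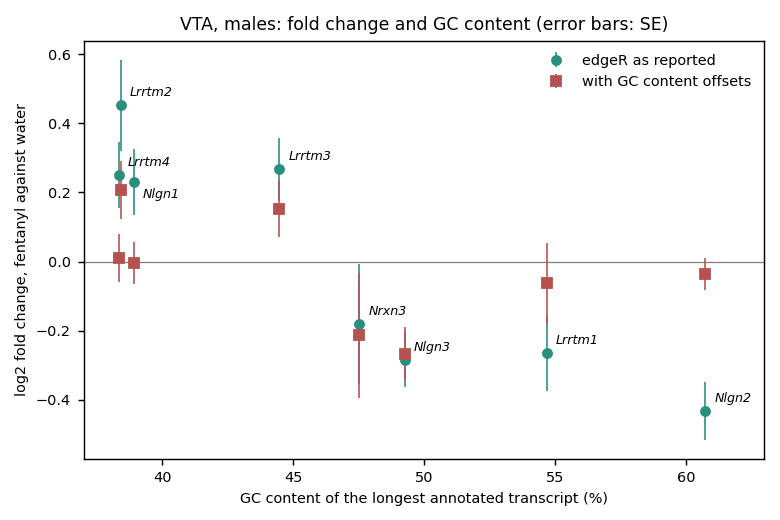
Log2 fold change of fentanyl against water in VTA males (vertical axis, bars of 1 SE) against the GC content of each gene's longest annotated transcript (horizontal axis, percent) for the 8 members, before (green circles) and after (red squares) GC offsets. Before the offsets the 4 genes lowest in GC lie above 0 and the other 4 below. Nlgn2, at 60.7% GC, moves from -0.43 to -0.04.

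Partners in VTA males moved both ways: 9 of 56 were higher and 10 lower, where 11% of all genes were higher and 11% lower, with a median of 0.01 beside 0.0017 over all genes. The 5 with the smallest p were all lower: Ptprs (log2 -0.47, adjusted p = 0.00218), a presynaptic receptor phosphatase, Shank1 (-0.40, 0.0033), the latrophilin Adgrl1 (-0.29, 0.00402), Lrfn1 (-0.53, 0.00428) and Ptprf (-0.32, 0.00444). On average over the sexes 7 were higher and 12 lower (11.1% and 12% of all genes), led by Ptprs (-0.33), Adgrl1 (-0.23), Ptprf (-0.24), Shank3 (-0.33) and Shank1 (-0.27). In VTA females none of the 56 was called by edgeR, with 11 at an unadjusted p under 0.05 (12.7% of all genes).

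In PrL, Lrrtm2 was the 1 member of 8 called, on the average of the sexes, where 0.697% of all genes were. Females with fentanyl read 139, 102, 126, 124 and 108 CPM, and females with water 88.5, 88.3, 108, 98.6 and 104 CPM. Males with fentanyl read 124, 99.5, 104, 104 and 101 CPM, and males with water 88.1, 91.3, 88.1, 93.6 and 107 CPM. The groups overlapped in both sexes, with 2 water libraries above the lowest fentanyl library among the females and 1 among the males. The log2 fold change was 0.27 ± 0.06 (SE, adjusted p = 0.0463 in edgeR), with 0.33 ± 0.09 in females (adjusted p = 0.27) and 0.21 ± 0.09 in males (adjusted p = 0.38).

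**Figure D4:**
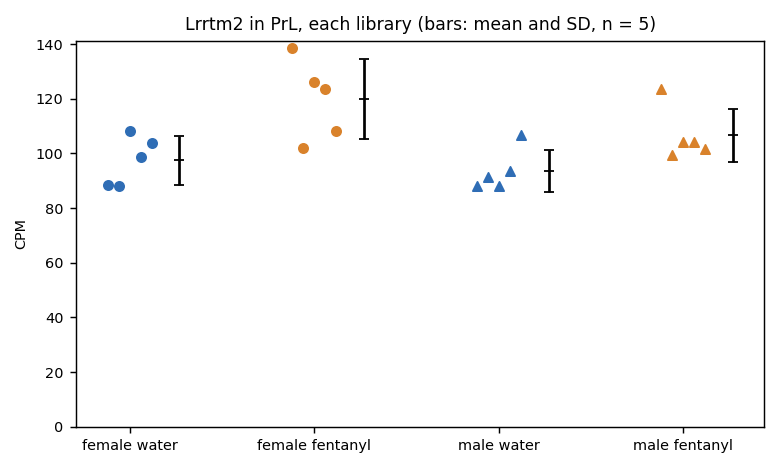
Lrrtm2 in CPM (vertical axis, from 0) in each PrL library of the 4 groups, with the mean and SD of each group of 5 beside the points. Fentanyl libraries reach 139 CPM in females and 124 CPM in males, and the groups overlap in both sexes.

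That call sat close to the threshold and was lost in 17 of 20 fits that left out 1 library, at log2 fold changes of 0.23 to 0.29. It was kept by DESeq2 (adjusted p = 0.00602), limma-voom (0.024) and GC offsets (0.35, adjusted p = 0.00973). With the replicate block it was lost, at 0 of 8 members called. PrL fentanyl libraries had fewer reads outside exons, with 9.99% to 11.8% against 12.1% to 14.1% in females and 10.9% to 12.9% against 12.7% to 14.5% in males, and all 5 cortical markers had a higher mean with fentanyl in both sexes. With that percent of reads in the model as a covariate Lrrtm2 gave 0.20 (adjusted p = 0.708), and with the cortical score 0.19 (0.441). That percent hardly overlapped between the treatments, so a fit that holds both can hardly separate them. Without PrL female water 5 and male water 3, the libraries with olfactory bulb markers, it gave 0.26 (adjusted p = 0.091). Ctnna1, the gene around it, gave -0.01 in the same comparison.

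No other member was called in PrL. The counts were 0 of 8 in females (0.021% of all genes), 0 in males (0%) and 0 for the difference between the sexes (0%), by edgeR, DESeq2 and limma-voom, with 2, 1 and 0 at an unadjusted p under 0.05 (9.53%, 12% and 2.59% of all genes). None of the 56 partners was called in PrL females, males or their average, with 5, 7 and 10 at an unadjusted p under 0.05, where 9.53%, 12% and 19.1% of all genes were.

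In NAc none of the 8 members was called by edgeR in females (0% of all genes), in males (0.662%), on average (0%) or for the difference between the sexes (0%), with 3, 2, 4 and 1 at an unadjusted p under 0.05 (9.03%, 17.6%, 12% and 15.2% of all genes). DESeq2 also gave 0, and limma-voom gave 0, 0, 1 and 1. Lrrtm1 was at 43.0 ± 7.47 CPM (SD, n = 5) with fentanyl and 34.9 ± 4.14 (n = 5) with water in females, and at 49.9 ± 3.70 (n = 5) and 42.8 ± 5.90 (n = 5) in males. Its log2 fold change on average was 0.28 ± 0.07 (SE, adjusted p = 0.224 in edgeR and 0.0415 in limma-voom). Nlgn3 differed in sign between the sexes, with -0.18 ± 0.10 in females and 0.24 ± 0.10 in males, and the interaction gave 0.42 ± 0.14 (SE, adjusted p = 0.149 in edgeR and 0.0432 in limma-voom).

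Lrrtm3 in NAc averaged 96.7 ± 14.8 CPM (SD, n = 5) with fentanyl and 71.7 ± 18.8 (n = 5) with water in females, at a log2 fold change of 0.43 ± 0.16 (SE, adjusted p = 0.54 in edgeR), and Lrrtm4 53.0 ± 2.53 (n = 5) and 61.5 ± 6.34 (n = 5), at -0.22 ± 0.09. Striatal markers ran beside these values: all 6 had a higher mean with fentanyl in both sexes, and in females they summed to 2198 to 3251 CPM against 1096 to 3014 CPM. The 5 cortical markers were all lower with fentanyl in NAc females, at 55.1 to 827 CPM against 248 to 1371 CPM. With the striatal marker score as a covariate Lrrtm3 in NAc females stood at 0.04 ± 0.08 (SE, adjusted p = 0.967 in edgeR) and Lrrtm4 at -0.17 ± 0.10 (0.904). Lrrtm1 on average stood at 0.18 ± 0.08 (0.533), the interaction of Nlgn3 at 0.49 ± 0.13 (0.069), and none of the 8 members was called. The part of the cortical markers in the NAc values was not tested. Of the partners Lin7a, a presynaptic adaptor, was the 1 of 56 called in NAc males, at -0.58 ± 0.10 (SE, adjusted p = 0.0242), and none was called in NAc females, with 7 at an unadjusted p under 0.05 (9.03% of all genes).

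In VBT and S1 none of the 8 members was called by edgeR, DESeq2 or limma-voom. The VBT background was 0% of all genes in females, in males, on average and for the difference between the sexes, with 0, 1, 0 and 1 members at an unadjusted p under 0.05 (7.86%, 8.7%, 8.49% and 8.03% of all genes). Lrrtm1 in VBT, where it is highest, gave -0.13 ± 0.19 (SE) in females and 0.37 ± 0.19 in males. The 2 at an unadjusted p under 0.05 were both Nlgn1, at -0.22 ± 0.07 in males (adjusted p = 0.349 in edgeR) and -0.33 ± 0.10 for the difference between the sexes (adjusted p = 0.328), beside 0.11 ± 0.07 in females. In S1 the background was 0.142% in females, 0% in males, 1.03% on average and 0% for the difference between the sexes, with 1, 1, 2 and 1 members at an unadjusted p under 0.05 (13.9%, 7.15%, 15.8% and 4.14% of all genes). Lrrtm2 in S1 males read 98.1, 100.8, 94.2, 92.7 and 108 CPM with fentanyl and 77.0, 87.2, 90.02 and 71.8 CPM with water. These groups did not overlap, which held in S1 males for 1.70% of all genes with a mean of at least 10 counts. The log2 fold change was 0.30 ± 0.09 (SE, adjusted p = 0.62 in edgeR) and in females at -0.05 ± 0.08, and the interaction of 0.34 ± 0.12 had an adjusted p of 0.957. None of the 56 partners in S1 and of the 55 tested in VBT was called by edgeR in females, males or their average, with 7, 6 and 11 in S1 and 4, 8 and 8 in VBT at an unadjusted p under 0.05, beside the same shares of all genes.

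**Figure D5:**
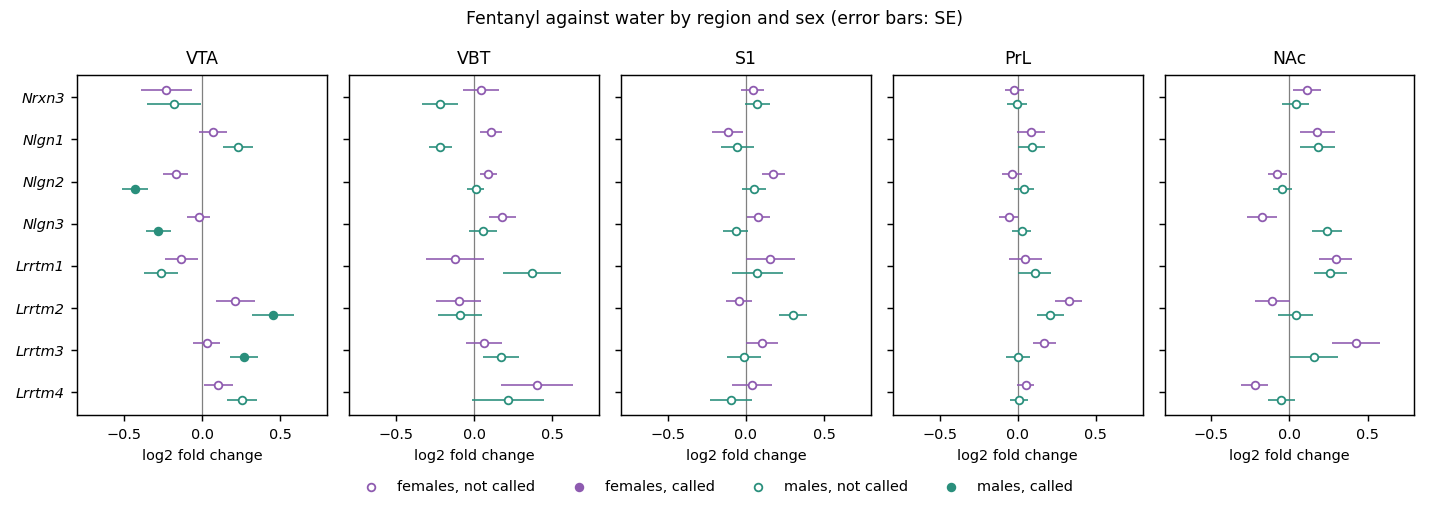
Log2 fold change of fentanyl against water (horizontal axes, bars of 1 SE) for the 8 members in each region, females in purple and males in green, filled where the adjusted p is under 0.05. The 4 filled points are Nlgn2, Nlgn3, Lrrtm2 and Lrrtm3 in VTA males.

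No member passed the test of males against females, averaged over both treatments. The count was 0 of 8 in VTA (0.0858% of all genes), VBT (0.132%), S1 (0.0709%), PrL (0.0786%) and NAc (0.077%), by edgeR, DESeq2 and limma-voom, with 0, 2, 0, 0 and 1 at an unadjusted p under 0.05 (7.25%, 13.1%, 6.12%, 3.92% and 9.72% of all genes). Nlgn3, which lies on the X chromosome, had log2 differences of males from females between -0.09 in VBT and 0.13 in NAc. The largest was Lrrtm1 in NAc, higher in males by 0.24 ± 0.07 (SE, adjusted p = 0.39 in edgeR).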

How the data were processed

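Per the labels' protocols, 10 ng of Trizol- and column-purified RNA went into each library, made with SMART-Seq v4. The values the authors deposited are raw read counts for each Ensembl gene, without normalization, made with HTSeq on GRCm38, per the submitters' processing notes. The aligner, the annotation release and the use of strand are not given in the sources used here. Symbols, coordinates, exon lengths and transcript GC content came from GENCODE M21, which holds 55154 of the 55335 identifiers, and promoters from RefSeq. The 5 lines of unassigned reads were kept out of totals, and reads outside exons made up 9.99% to 18.0% of the reads of a library.

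CPM is the count scaled to the gene total of a library. Each region was fitted alone on its 4 groups of sex and treatment, and the water libraries of all regions together with sex as a covariate, by the quasi-likelihood test of edgeR 4.0.16 (R 4.3.3) with TMM factors, filterByExpr and robust dispersions. Benjamini-Hochberg adjustment ran over all genes tested, and a gene with an adjusted p under 0.05 is called. The F statistic gave the standard errors. DESeq2 1.42.0 and limma 3.58.1 (voom with sample weights), other normalization, filters, offsets, covariates and left-out libraries were alternatives. The scripts were tested on simulated data. In VTA males, over 19527 genes, 88 of 100 genes changed 2-fold and 75 of 100 changed 1.5-fold were recovered, with 6 false calls. None was called in VTA females, where no change was simulated. Changes under 1.5-fold, such as those of the members called in VTA males, were not simulated. A count of 0 allows up to 3 counts, a limit for counting error alone, as PCR copies cannot be told from separate molecules here.

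The 9 genes, the 56 partners, the 59 markers and the tests were chosen with earlier results of these data known. Named genes were all 9 members, up to 5 called partners per fentanyl comparison by p, the partners with the highest and lowest log2 difference per region, and the 2 genes and 1 member most correlated with each member. The Wald test was not run for the test of any region.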

Additional observations from a re-analysis of the deposited data

Results flagged for a closer look

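In 160 groups of 4 or 5 libraries (8 genes in 20 groups), 10 had 1 library farther from its nearest neighbour than Dixon's 95% limit allows, where chance alone gives about 8. No explanation was weighed for any of them.

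Nrxn3 read 191.8 CPM in VTA female fentanyl 3, below the other 4 at 326 to 377 CPM. This library also held the most cortical marker RNA in VTA, 160 CPM summed over 5 genes. Nrxn3 read 328.6 CPM in NAc male water 2, below 374 to 383 CPM. Nlgn1 read 55.0 CPM in VTA male water 2, below 65.5 to 67.1 CPM, and 103.8 CPM in PrL female fentanyl 1, below 121 to 124 CPM. Nlgn3 read 82.3 CPM in NAc female fentanyl 5, above 66.2 to 70.3 CPM.

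Lrrtm1 read 56.3 CPM in NAc male fentanyl 4, above 46.9 to 49.4 CPM. Lrrtm2 read 123.6 CPM in PrL male fentanyl 1, above 99.5 to 104 CPM, and leaving this library out ended the PrL call (adjusted p = 0.0802 in edgeR). Lrrtm4 read 24.2 CPM in VTA male fentanyl 2, below 26.2 to 26.8 CPM. It read 72.4 CPM in NAc female water 1, above 55.8 to 60.5 CPM, a library whose 5 cortical markers summed to 1371 CPM. Lrrtm4 also read 67.5 CPM in NAc male water 1, above 49.8 to 54.8 CPM.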

How the results depend on the processing

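The VBT values of Lrrtm1, Lrrtm3, Lrrtm4 and Nlgn1 kept direction and call in every alternative run, as did Nlgn2 and Lrrtm2. Nlgn3 lost its VBT call with VTA male water 3 kept, and Nrxn3 did with that library, with the fentanyl libraries, and without VBT female water 4 or 5. The VTA fentanyl calls depended most on the processing: of 8 members in males, 7 were called by limma-voom, 0 with GC content offsets, 2 with the VTA marker score as covariate and 0 with VTA male water 3 kept. With that library kept Nlgn3 turned to 0.037, Lrrtm2 to -0.085 and Lrrtm3 to -0.34 in males, and Nlgn3 to 0.0039 on the average of the sexes, and the median of all genes in males moved by 0.20. On the average 5 were called by DESeq2, 0 with GC offsets and 0 with that library kept. Leaving out 1 library gave 1 (without male water 4) to 6 (without male fentanyl 2) calls in VTA males, 2 to 5 on the average, and 0 to 1 in PrL. The shares of all genes called in these fits are not set beside these counts or those for PrL and NAc below. A change in such a count is therefore not read as particular to the members.

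The PrL call of Lrrtm2 went to 0 of 8 with the replicate block, the percent of reads outside exons or the cortical score as covariate, and without the libraries with olfactory bulb markers (2 libraries, or 3 with male water 4, an alternative chosen after seeing the data). In NAc 1 member was called by limma-voom and 2 with the percent outside exons on the average, and 1 by limma-voom for the difference between the sexes.

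Between regions, keeping VTA male water 3 gave 3 calls for VTA, 3 for S1, 1 for S1 against PrL and 2 for PrL against NAc. For S1 against PrL limma-voom gave 6 and GC offsets 5. The fentanyl libraries gave 8 for VTA (71.4% of all genes), 7 for VTA against S1 (69.2%) and 5 for S1 against PrL (42.9%). They turned Nrxn3 to -0.25 in VTA, to -0.19 against S1 and to -0.28 against NAc. They turned Lrrtm2 to 0.18 in PrL and to 0.29 against NAc, and for VTA minus VBT Nlgn2 to -0.11 and Nlgn3 to -0.11. Leaving out 1 library gave 5 to 7 calls in VTA, 7 to 8 in VBT, 5 to 6 in S1, 4 in PrL and 4 to 5 in NAc. The cause of these changes was not tested. Of 35 shares of a family, 16 moved by over 1 SD with only unshared exon bases and 11 in the fentanyl libraries. Leave-one-out fits were not run for pairs of regions or for any region, nor the Wald test for any region.

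Same-numbered libraries did not meet the rule for pairing, a correlation of deviations over 0.1 in every pair. Over 48 fentanyl and water pairs the median was 0.046, with 14 over 0.1. Over 92 pairs between regions it was 0.050, with 30 over 0.1, of which 17 were among the 28 pairs of S1, PrL and NAc, and the labels do not say whether regions share animals. With the replicate block the PrL call of Lrrtm2 became 0 of 8 (adjusted p = 0.0891), and VTA against PrL gave 7 calls in place of 6.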

Other observations

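VTA male water 3, the library left out, held 0 counts of Nrxn2, Nlgn3 and Lrrtm4. It held 5140 counts of Lrrtm2, or 311 CPM, and 2610 of Lrrtm3, or 158 CPM, while the other 4 VTA male water libraries read 67.1 to 77.8 CPM and 30.9 to 35.0 CPM. Nrxn3 was at 126 CPM, Nlgn1 at 22.2 CPM and Lrrtm1 at 39.1 CPM in it. Nlgn2, at 271 CPM, lay within the range of those libraries.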
